A study of Saccharomyces cerevisiae with 15 samples.

Results

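The transcripts described are those of 10 genes whose products set the transcription of ribosomal genes in Saccharomyces cerevisiae: IFH1, FHL1, SFP1, RAP1, CRF1, HMO1, TOD6, DOT6, STB3 and ABF1. They were chosen by gene symbol, and each had 1 probe set that the array's annotation pairs with a single gene, so that 10 of 5449 measured genes were taken and none was lost to a filter. The samples came from an N-downshift, in which the wild-type strain YSBN6 grew in glucose minimal medium with glutamine and proline until glutamine, the preferred N-source, was depleted and proline was left. Affymetrix Yeast Genome 2.0 arrays were hybridised with labelled cRNA made from total RNA of 3 independent bioreactor batch cultures (replicates 1, 2 and 3). The steady state labelled −10 min, 7 min after the shift and 24 min after the shift were measured in all 3 cultures, whereas −5, 3, 10, 14, 56 and 120 min were measured in replicate 1 alone, for 15 arrays in all. The label −10 min is nominal, as the study's supplement places the steady-state sample earlier than that and at a different time in each of the 3 cultures. Every culture was wild type and received the same medium, so the groups differ in time relative to the shift. Times measured in replicate 1 alone also differ from the others in the cultures they hold. No culture without a shift was sampled beside them. RNA was taken from whole cultures, so a change in every cell and a change in a part of the cells cannot be told apart.

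Growing yeast spends much of its transcription on ribosomes, and the TORC1 and protein kinase A pathways tie this effort to nutrients. Ribosomal protein genes are bound by Rap1, Fhl1 and often Hmo1, and Ifh1 activates them by binding the forkhead-associated domain of Fhl1, a place that the Ifh1 paralog Crf1 has been described to take as a corepressor in some strains. Ribosome biogenesis genes, which encode the assembly factors, rRNA modification enzymes and RNA polymerase I subunits, carry PAC and RRPE elements in their promoters. The paralogous Myb-type repressors Tod6 and Dot6 bind PAC and recruit the histone deacetylase Rpd3L, Stb3 binds RRPE, and Sfp1 is an activator of both gene classes. Abf1, like Rap1, is a general regulatory factor with sites at many unrelated promoters as well.

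Between arrays the summed intensity ranged between 22691203 and 24045522 units, and the SD of log2 differences between 2 cultures at the same time was 0.0863 to 0.167 over the measured transcripts. The background level, set at the 95th percentile of 1746 probe sets that belong to the array's other organism (a fission yeast), was 68.1 intensity units. All 10 regulators were above this level on each array, with the exception of TOD6 at 14 and 24 min. None of the 10 probe sets carried a suffix for probes shared with other genes. Intensities are given on the linear scale as deposited and changes on the log2 scale, and levels are compared within a gene only.

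**Figure D1:**
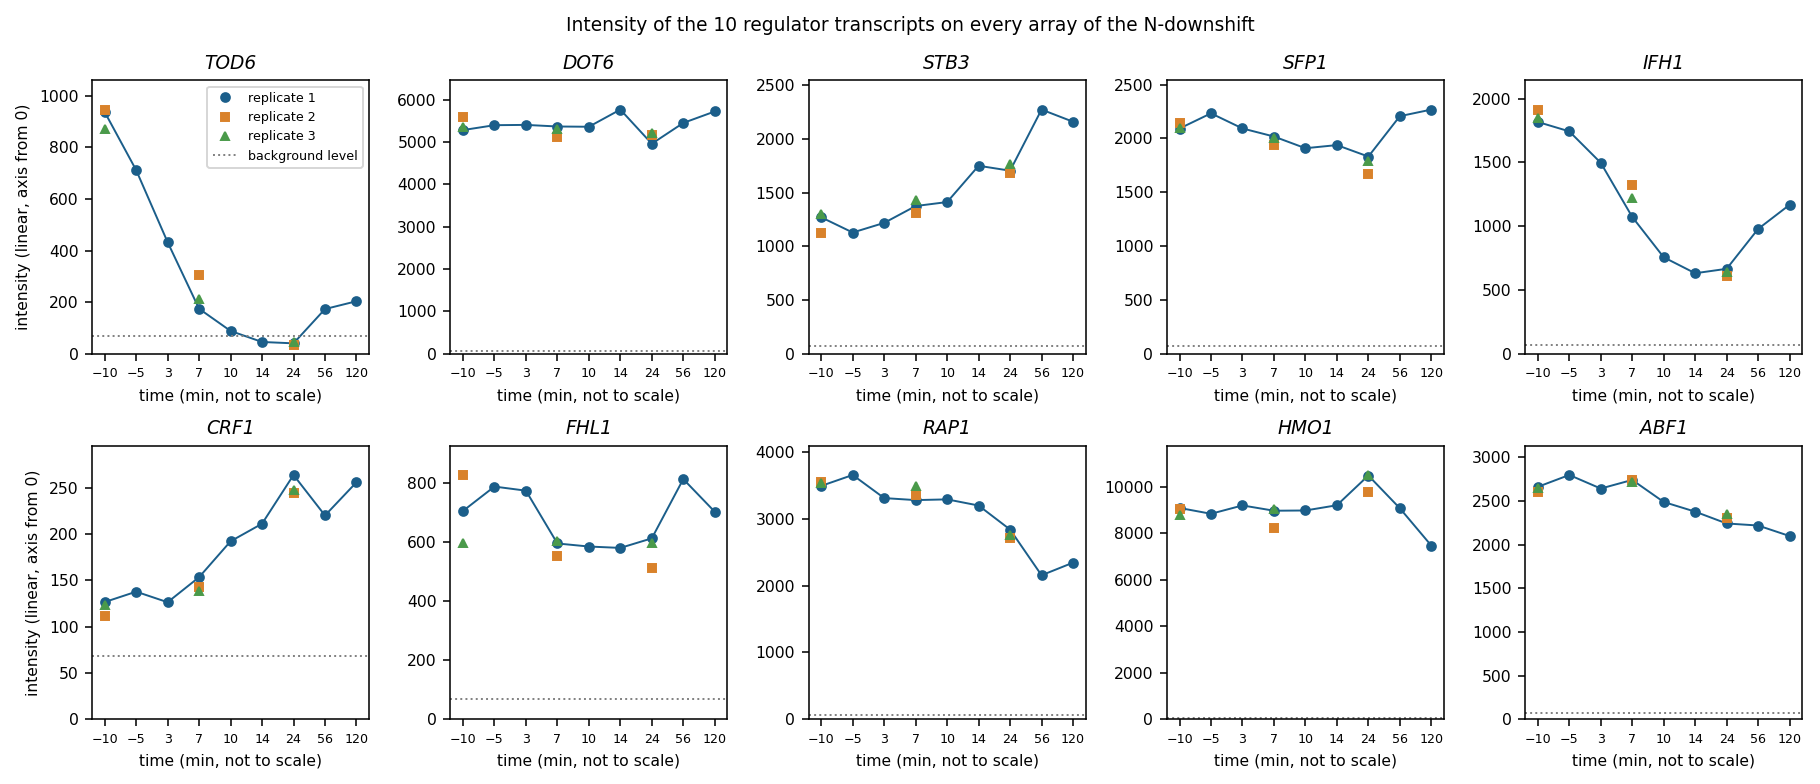
Linear intensity (axis from 0) of the 10 regulator transcripts against sampled time in minutes, drawn at equal steps. Points are single arrays by culture, the line joins replicate 1, and the dotted line is the background level of 68.1; TOD6 reached it at 14 and 24 min, IFH1 was lowest at 14 and 24 min, CRF1 and STB3 were higher late, and DOT6 stayed between 4959 and 5766.

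The regulators differed widely in how far their transcripts moved. TOD6 spanned at least 13.9-fold over the 15 arrays, IFH1 3.15-fold, CRF1 2.36-fold and STB3 2.01-fold. The other six stayed within a 1.70-fold range, the narrowest being that of DOT6 with 1.16-fold. At 7 min against −10 min, CRF1 rose and IFH1 and TOD6 fell (1 of 10 higher, where 18.5% of all 5498 probe sets were higher, and 2 of 10 lower, where 20.9% of all were lower). At 24 min against −10 min, CRF1, HMO1 and STB3 rose and IFH1, FHL1, SFP1, RAP1, TOD6 and ABF1 fell (3 of 10 higher against 46.9% of all, 6 of 10 lower against 35.2% of all). The calls are those of limma with adjusted p under 0.05. DOT6 was the only one of the 10 that passed in neither comparison. The median log2 change over the 10 regulators was −0.05 at 7 min and −0.23 at 24 min, beside −0.01 and 0.09 over all probe sets. With each array centred on its median, 63.1% of all calls at 7 min were higher, against 46.9% without centring, and STB3 and ABF1 then passed as higher as well.

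**Figure D2:**
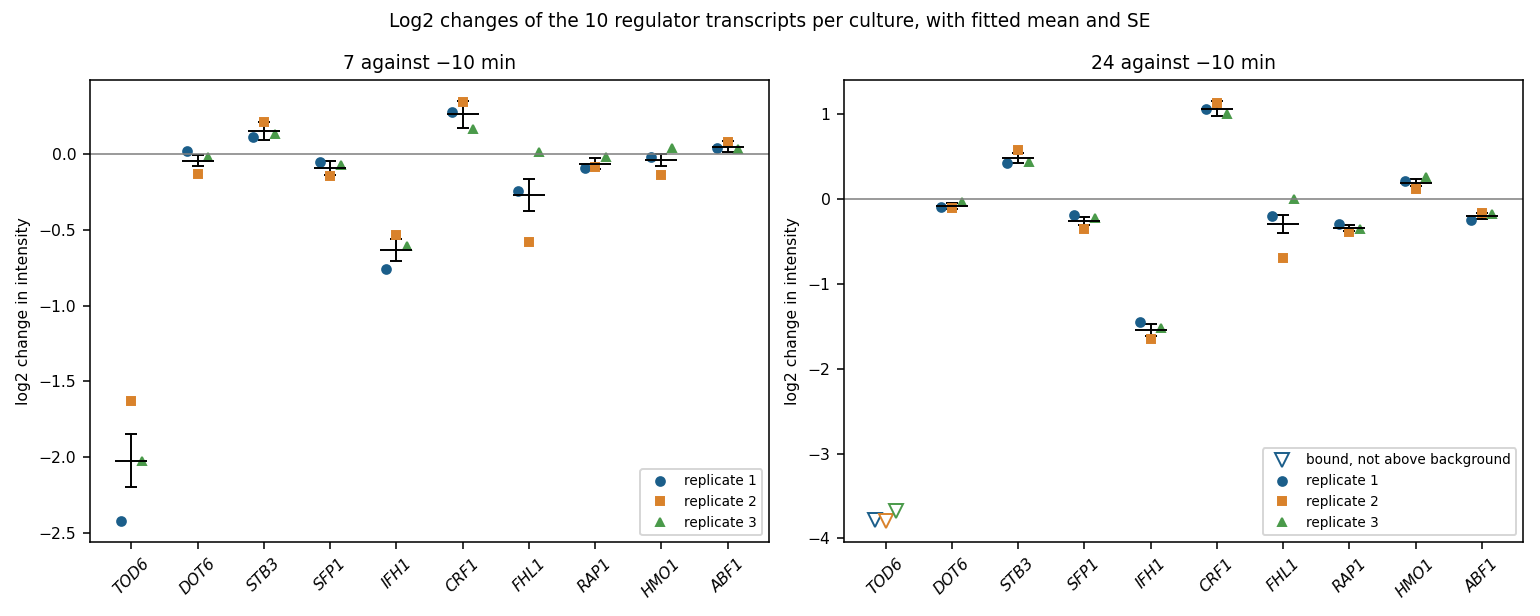
Log2 change in intensity at 7 min (left) and 24 min (right) against −10 min for the 10 regulators. Coloured points are the changes within each culture, black marks the fitted mean with its SE, and open triangles the bound for TOD6 where it was not above background; TOD6 lies lowest, the fitted mean of IFH1 next and that of CRF1 highest in both panels, and the 3 FHL1 cultures lie apart.

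Among the repressors of ribosome biogenesis genes, TOD6 (YBL054W) showed the most extreme course. Its intensity was 937, 946 and 871 in replicates 1 to 3 at −10 min, 712 at −5 min, 432 at 3 min, then 174, 306 and 214 at 7 min, 88.5 at 10 min, 45.9 at 14 min, then 40.6, 34.4 and 46.0 at 24 min, 173 at 56 min and finally 204 at 120 min. Each array after the shift was thus below each array at −10 min, and the arrays at 14 and 24 min were not above background. TOD6 averaged 232 ± 67.6 at 7 min and 918 ± 40.9 at −10 min (SD, N = 3 each), a log2 change of −2.03 (SE 0.17, adjusted p = 1.16e-05) that was the second lowest among 5498. Within the cultures it was −2.42, −1.63 and −2.02. At 24 min TOD6 was at least 13.5-fold lower than at −10 min (adjusted p = 1.45e-10) and at least 3.31-fold lower than at 7 min (adjusted p = 6.51e-08). Both adjusted p are from the limma fit of the deposited values, which were not raised to background, and do not test the bounds. In the order of its levels, −10, −5 and 3 min came first, followed by 7, 120 and 56 min, whose neighbours lay closer than the SD within a time, and then 10 min.

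DOT6 (YER088C), the paralog of TOD6, stayed near its starting level. It read 5282, 5599 and 5351 at −10 min, 5397 at −5 min, 5404 at 3 min, then 5366, 5114 and 5301 at 7 min, 5360.2 at 10 min, 5766 at 14 min, then 4959, 5175 and 5223 at 24 min, 5450.0 at 56 min and finally 5721 at 120 min. The arrays at 7 min overlapped those at −10 min, and the 3 arrays at 24 min lay just below them. The log2 change was −0.04 (SE 0.03, adjusted p = 0.39) at 7 min and −0.08 (SE 0.03, adjusted p = 0.0503) at 24 min. With the 9 arrays of the replicated times alone, or with 50 units added before log2, the difference at 24 min passed the threshold (adjusted p = 0.0499 and 0.0493), and after quantile normalization it was −0.17 (adjusted p = 0.00041). Its levels ordered 14, 120, 56, −10, 3, −5, 10, 7 and 24 min, and 7 of the 8 neighbours in this order lay closer than the SD within a time.

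STB3 (YDR169C), which encodes the RRPE-binding repressor, rose over the course. It had 1271, 1129 and 1307 units at −10 min, 1130 at −5 min, 1219 at 3 min, then 1376, 1309.9 and 1434 at 7 min, 1413 at 10 min, 1751 at 14 min, then 1705, 1685 and 1770.0 at 24 min, 2275 at 56 min and finally 2161 at 120 min. The arrays at 24 min lay above all at −10 min, and those at 7 min lay just above them too. STB3 averaged 1720.2 ± 44.3 at 24 min and 1236 ± 93.8 at −10 min (SD, N = 3 each), a log2 change of 0.48 (SE 0.06, adjusted p = 1.05e-05) or 1.39-fold. At 7 min the change was 0.15 (SE 0.06, adjusted p = 0.0628). In the paired fit with a replicate block for the culture it passed (adjusted p = 0.0375), as it did after quantile normalization (0.21, adjusted p = 0.0194) and median centring (0.20, adjusted p = 0.022). Highest were 56 and 120 min, which did not differ beyond the spread, and 14 and 24 min formed the next such pair.

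SFP1 (YLR403W), the zinc-finger activator of both gene classes, moved little and fell at 24 min, with no call at 7 min. Its values were 2092, 2144 and 2097 at −10 min, 2233 at −5 min, 2093 at 3 min, then 2018, 1938 and 2001 at 7 min, 1909 at 10 min, 1938 at 14 min, then 1832, 1669 and 1794 at 24 min, 2207 at 56 min and finally 2268 at 120 min. The arrays at 24 min were the lowest of all, and those at 56 and 120 min were above every array at −10 min. SFP1 averaged 1765 ± 85.4 at 24 min and 2111 ± 28.3 at −10 min (SD, N = 3 each), a log2 change of −0.26 (SE 0.04, adjusted p = 0.00016). At 7 min the change was −0.09 (SE 0.04, adjusted p = 0.139), although the groups did not overlap. Its levels ran in the order 120, −5, 56, −10, 3, 7, 14, 10 and 24 min, with 24 min set apart by more than the SD within a time.

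Of the regulators at ribosomal protein promoters, the coactivator transcript IFH1 (YLR223C) fell early and far. It read 1817, 1914 and 1849 at −10 min, 1743 at −5 min, 1497 at 3 min, then 1073, 1322 and 1218 at 7 min, 757 at 10 min, 631 at 14 min, then 666, 608 and 644 at 24 min, 979 at 56 min and finally 1168 at 120 min. The arrays of −10, 7 and 24 min did not overlap, and both late arrays lay above those of 24 min and below those of −10 min. IFH1 averaged 1204 ± 125 at 7 min and 1860.0 ± 49.5 at −10 min (SD, N = 3 each), a log2 change of −0.63 (SE 0.07, adjusted p = 3.52e-05). At 24 min, where it averaged 639 ± 29.6 (SD, N = 3), the change from −10 min was −1.54 (SE 0.07, adjusted p = 9.50e-10), or 2.91-fold lower. It was lowest at 14 and 24 min, which did not differ beyond the spread, and 7 and 120 min stood at like levels.

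CRF1 (YDR223W), the paralog of IFH1 described as a corepressor, moved the other way at a low intensity. It had 127, 112 and 124 units at −10 min, 138 at −5 min, 126 at 3 min, then 153, 142 and 139 at 7 min, 192 at 10 min, 211 at 14 min, then 264, 245 and 247 at 24 min, 220.1 at 56 min and finally 256 at 120 min. Each array at 7 min lay above each at −10 min, and those at 24 min above both. CRF1 averaged 252 ± 10.5 at 24 min and 121 ± 7.78 at −10 min (SD, N = 3 each), a log2 change of 1.06 (SE 0.09, adjusted p = 1.96e-07) or 2.09-fold. At 7 min the change was 0.26 (SE 0.09, adjusted p = 0.031), with 0.28, 0.35 and 0.17 in the cultures. This call was lost when any 1 culture was left out, with adjusted p of 0.191, 0.108 and 0.116 without replicates 1, 2 and 3. Its levels at 120 and 24 min did not differ beyond the spread and were the highest.

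FHL1 (YPR104C), which encodes the forkhead-like protein that anchors Ifh1, varied widely between cultures. It read 707, 829 and 598 at −10 min, 789 at −5 min, 775 at 3 min, then 596, 555 and 606 at 7 min, 586 at 10 min, 581 at 14 min, then 614, 513 and 599 at 24 min, 815 at 56 min and finally 704 at 120 min. The arrays at −10 min overlapped those at both 7 and 24 min, and replicate 3 started at 598. The log2 change at 24 min was −0.30 (SE 0.11, adjusted p = 0.0237), and within the cultures it was −0.20, −0.69 and 0.00. Without replicate 2 it was −0.10 (adjusted p = 0.273), and after quantile normalization −0.03 (adjusted p = 0.773), so the call was lost in both. After median centring it was −0.28 and passed (adjusted p = 0.0186). At 7 min the change was −0.27 (SE 0.11, adjusted p = 0.0719), and it passed after quantile normalization (−0.23, adjusted p = 0.0442) and without replicate 3 (−0.41, adjusted p = 0.0434), but was −0.11 without replicate 2 (adjusted p = 0.294). In the order of its levels the times 56, −5, 3, −10 and 120 min, then 10, 7, 14 and 24 min, formed 2 runs of neighbours closer than the SD within a time.

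RAP1 (YNL216W), the factor that opens ribosomal protein promoters and also binds telomeres, fell later. It had 3497, 3553 and 3533 units at −10 min, 3660.1 at −5 min, 3314 at 3 min, then 3284, 3361 and 3494 at 7 min, 3295 at 10 min, 3202 at 14 min, then 2842, 2710.2 and 2766 at 24 min, 2157 at 56 min and finally 2346 at 120 min. The arrays at 24 min lay below all earlier ones, and those at 56 and 120 min lay lower again. RAP1 averaged 2773 ± 66.2 at 24 min and 3528 ± 28.7 at −10 min (SD, N = 3 each), a log2 change of −0.35 (SE 0.04, adjusted p = 1.82e-06) or 1.27-fold lower. At 7 min the change was −0.06 (SE 0.04, adjusted p = 0.199). From 14 min onwards each neighbour in the order of its levels differed by more than the SD within a time, down to 56 min.

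HMO1 (YDR174W), which encodes a high mobility group protein of ribosomal protein promoters and rDNA, peaked at 24 min. It read 9088, 9049 and 8787 at −10 min, 8837 at −5 min, 9196 at 3 min, then 8969, 8225 and 9039 at 7 min, 8979 at 10 min, 9204 at 14 min, then 10483, 9769 and 10507 at 24 min, 9075 at 56 min and finally 7469 at 120 min. The arrays at 24 min lay above all others and that at 120 min below all others. HMO1 averaged 10253 ± 419 at 24 min and 8974 ± 164 at −10 min (SD, N = 3 each), a log2 change of 0.19 (SE 0.04, adjusted p = 0.000841) or 1.14-fold. After quantile normalization this was 0.08 (adjusted p = 0.0424). The other 7 times lay in a run of neighbours closer than the SD within a time.

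ABF1 (YKL112W), the second general regulatory factor, fell slowly through the course. Its values were 2661, 2597 and 2651 at −10 min, 2797 at −5 min, 2642 at 3 min, then 2741, 2745 and 2714 at 7 min, 2488 at 10 min, 2377 at 14 min, then 2242, 2307 and 2348 at 24 min, 2218 at 56 min and finally 2098 at 120 min. The cultures lay close together, and 24, 56 and 120 min were below every array up to 10 min. ABF1 averaged 2299 ± 53.5 at 24 min and 2637 ± 34.3 at −10 min (SD, N = 3 each), a log2 change of −0.20 (SE 0.04, adjusted p = 0.000225). At 7 min it was 0.05 (SE 0.04, adjusted p = 0.274). Its levels ordered −5, 7, 3, −10, 10, 14, 24, 56 and 120 min, and only 3 and −10 min lay closer than the SD within a time.

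The comparison of 24 with 7 min shows what changed after the first response. It holds no −10 min array but reuses the 7 and 24 min arrays of the comparisons above, so it is not independent of them. CRF1, HMO1 and STB3 rose (3 of 10 higher, against 46.9% of all), by 0.80, 0.23 and 0.33 on the log2 scale. IFH1, SFP1, RAP1, TOD6 and ABF1 fell (5 of 10 lower, against 29.9% of all). The log2 change of IFH1 was −0.91 (SE 0.07, adjusted p = 2.24e-07), that of RAP1 −0.29 and that of ABF1 −0.25. FHL1 did not pass, at −0.03 (SE 0.11, adjusted p = 0.811), and after quantile normalization its change took the other sign (0.20, adjusted p = 0.0432).

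The times measured in replicate 1 alone fill in the course, on the assumption that a single array varies as the replicated times do. Their SE is larger than at 7 and 24 min, 0.10 against 0.07 for IFH1. A change of the same size therefore passes less readily, and the counts are not comparable with those at 7 and 24 min. At −5 min against −10 min none of the 10 passed, where 0.0182% of all probe sets did (1 in number). At an unadjusted p under 0.05, 584 of all and 0 of the 10 passed there. At 3 min 1 of 10 passed, against 3.69% of all. It was TOD6, which changed by −1.09 on the log2 scale (SE 0.25, adjusted p = 0.0406). This call was lost without replicate 3 (adjusted p = 0.309), in the paired fit with the replicate block (−0.98, adjusted p = 0.189) and without the intensity trend (adjusted p = 0.0826). IFH1 was at −0.31 there (SE 0.10, adjusted p = 0.102) and passed without replicate 2 (adjusted p = 0.0303). At 10 min CRF1 was higher and IFH1 and TOD6 lower, so that 3 of 10 passed, against 51.2% of all, and the changes of IFH1 and CRF1 were −1.30 (SE 0.10) and 0.67 (SE 0.12). At 14 min 6 of 10 passed, against 67.6% of all: CRF1 and STB3 were higher (0.81 and 0.51), and IFH1, RAP1, ABF1 and TOD6 lower. With quantile normalization 56.1% of all calls at 3 min were higher, against 69.5% as deposited, and with centring 61.7% at 10 min, against 50.1%. RAP1 and ABF1 lost their calls at 14 min with the replicate block (adjusted p = 0.0809 and 0.0647) and without replicate 3 (adjusted p = 0.0908 and 0.0849).

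In the late samples the regulators moved in different directions relative to 24 min. At 56 min IFH1, FHL1, SFP1, TOD6 and STB3 were higher than at 24 min (5 of 10, against 32.6% of all) and RAP1 and HMO1 lower (2 of 10, against 12.2% of all). At 120 min IFH1, SFP1, TOD6, DOT6 and STB3 were higher than at 24 min (5 of 10, against 30.2% of all) and RAP1, HMO1 and ABF1 lower (3 of 10, against 21.0% of all). The activator transcripts IFH1 and SFP1 gained 0.87 (SE 0.10, adjusted p = 2.30e-05) and 0.36 (SE 0.06, adjusted p = 0.000493) at 120 min. TOD6 was at least 2.55-fold higher at 56 min and at least 2.99-fold higher at 120 min than at 24 min. The log2 change of HMO1 at 120 min against 24 min was −0.46 (SE 0.06, adjusted p = 3.91e-05), and that of RAP1 −0.24 (SE 0.05, adjusted p = 0.00204). STB3, a repressor transcript, was higher by 0.33 (SE 0.09, adjusted p = 0.00689) as well, whereas CRF1 was at 0.02 (SE 0.12, adjusted p = 0.892). After quantile normalization CRF1 took the other sign and passed (−0.40, adjusted p = 0.0211). Under the replicate block FHL1 at 56 min (adjusted p = 0.0696) and ABF1 at 120 min (adjusted p = 0.122) lost their calls. DOT6 and ABF1 at 120 min, and HMO1 at 56 min, also lost theirs without replicate 3 (adjusted p = 0.0571, 0.192 and 0.11). With quantile normalization 53.4% of all calls at 56 min and 48.0% at 120 min were higher, against 72.8% and 59.0% as deposited.

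**Figure D3:**
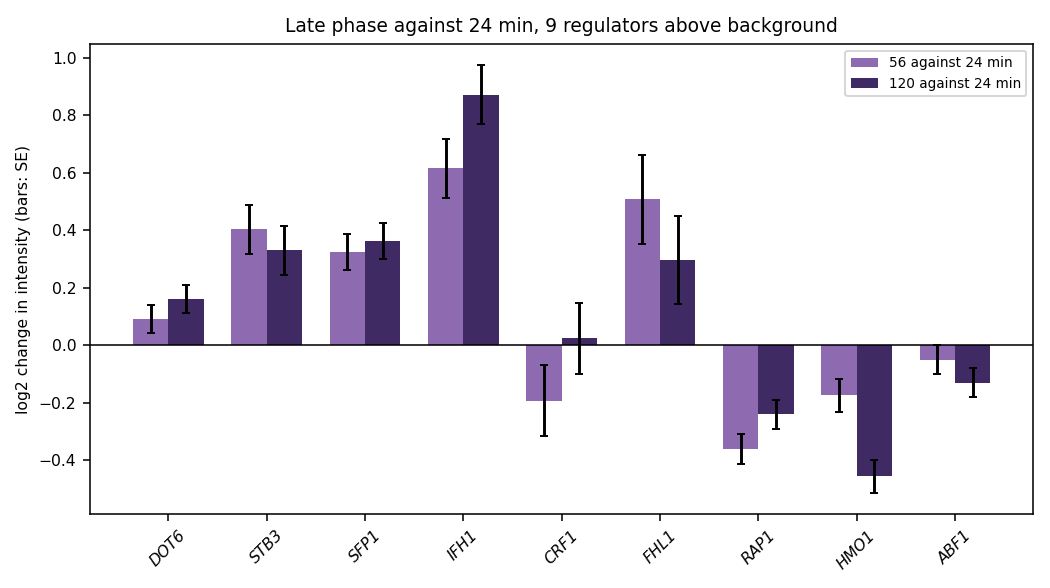
Log2 change in intensity at 56 and 120 min (1 array each) against 24 min (3 arrays) for 9 regulators, with bars for the SE of the fit. TOD6 is left out because it was not above background at 24 min; IFH1 has the highest bars, at 0.62 and 0.87, and HMO1 the lowest, at −0.46 for 120 min.

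Relative to −10 min, 6 of 10 regulators passed at 56 min, against 79.1% of all, and 7 of 10 at 120 min, against 77.3% of all. Both times have the larger SE of a single array. IFH1 was still lower at 120 min, at −0.67 (SE 0.10, adjusted p = 7.02e-05), and TOD6 at −2.17 (SE 0.25, adjusted p = 4.99e-06). RAP1 was at −0.59 (SE 0.05) and ABF1 at −0.33 (SE 0.05), both lower than they had been at 24 min, and HMO1 at −0.26 (SE 0.06, adjusted p = 0.00111). CRF1 at 1.09 (SE 0.12) and STB3 at 0.81 (SE 0.09) were higher. SFP1 and FHL1 were at 0.10 (SE 0.06, adjusted p = 0.153) and 0.00 (SE 0.15, adjusted p = 0.992).

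The log2 changes of each paralog pair differed in every culture. The log2 change of TOD6 minus that of DOT6 was −2.45, −1.50 and −2.01 in replicates 1 to 3 at 7 min, with a mean of −1.99 ± 0.48 (SD, N = 3). At 24 min, with TOD6 raised to the background level, it was −3.69, −3.68 and −3.64, which is a bound. The log2 change of IFH1 minus that of CRF1 was −1.04, −0.88 and −0.77 at 7 min and −2.51, −2.78 and −2.52 at 24 min, with means of −0.90 ± 0.14 and −2.60 ± 0.16 (SD, N = 3). All 3 cultures had the same sign for each pair, and the difference itself was not tested.

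**Figure D4:**
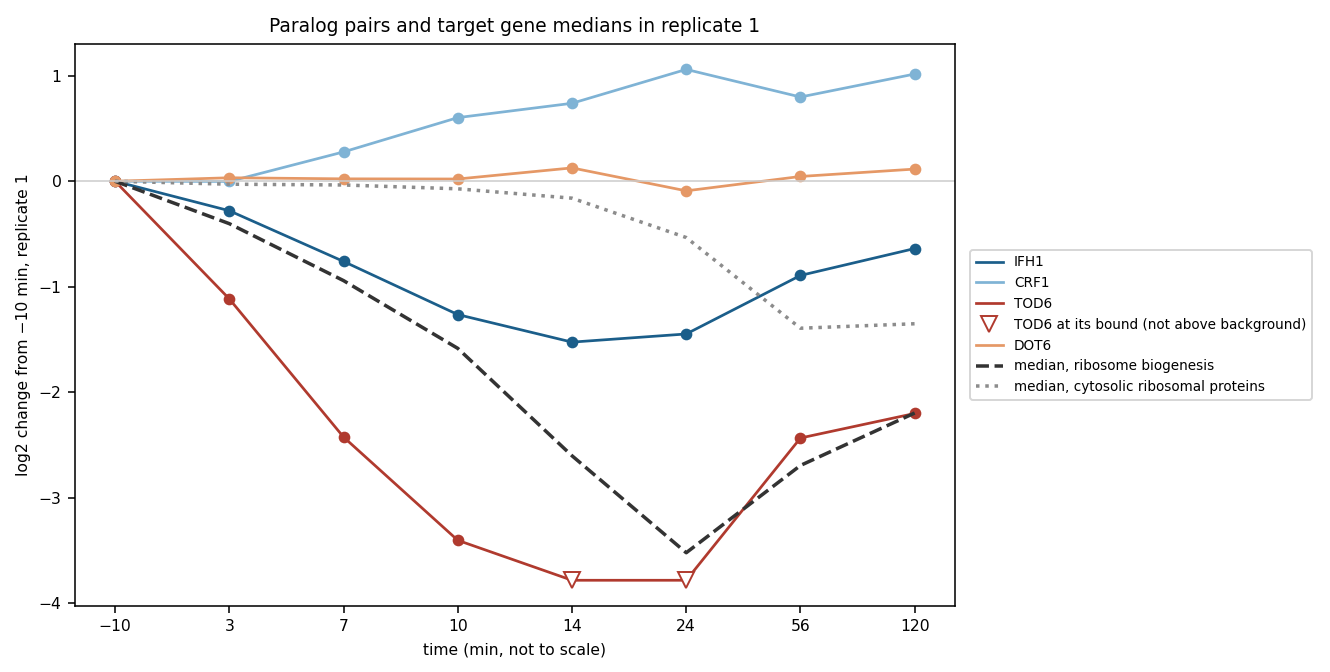
Log2 change from −10 min in replicate 1 against sampled time in minutes (equal steps, −5 min left out) for IFH1, CRF1, TOD6 and DOT6, and the median over ribosome biogenesis genes (dashed) and ribosomal protein genes (dotted). Open triangles mark TOD6 where it was not above background, so that only a bound is drawn; TOD6 lies lowest up to 24 min, the ribosome biogenesis median reaches −3.52 at 24 min and the ribosomal protein median −1.39 at 56 min.

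The time at which a transcript first reached 50% of its largest change, read by linear interpolation of log2 values in replicate 1, put the regulators in an order. TOD6 came at 6.51 min (5.37 min with values below background raised to it, a step chosen after seeing the data) and IFH1 at 7.01 min. CRF1 followed at 9.33 min, STB3 at 13.5 min, ABF1 at 15.0 min and RAP1 at 28.0 min. HMO1, whose largest change was the late fall, reached it at 87.8 min. For comparison, the median over the ribosome biogenesis genes did so at 10.7 min and that over the ribosomal protein genes at 30.1 min. FHL1, SFP1 and DOT6 gave 5.90, 8.64 and 11.6 min, but their largest changes in replicate 1 were only −0.28, −0.19 and 0.13. On the linear intensity scale TOD6 came at 1.55 min and STB3 at 27.8 min. STB3 then came after ABF1 (13.9 min) and RAP1 (24.7 min), so the order depends on the scale. As a single culture was followed, the error of these times could not be estimated.

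The genes that the regulators act on fell, the ribosome biogenesis genes earlier than the ribosomal protein genes. Of the 129 measured ribosome biogenesis genes (130 listed) all were lower at 7 min (20.9% of all probe sets were) and at 24 min (35.2% of all), with median log2 changes of −0.78 and −3.66. Examples at 24 min are NSR1 (nucleolin), at −5.65 (SE 0.15), and the RNA helicase genes DBP3, at −5.48 (SE 0.10), and DRS1, at −5.32 (SE 0.11), which was above background on 14 of 15 arrays. The 24 subunit genes of RNA polymerase I and RNA polymerase III behaved alike, with 23 lower at 7 min (median −0.51) and 24 at 24 min (median −2.14), led by RPA49 at −5.16 (SE 0.11) and RPA43 at −4.61 (SE 0.08). By contrast, of the 127 ribosomal protein genes 2 were lower and none higher at 7 min (median −0.02), with 127 of 127 lower at 24 min (median −0.45), where RPL22B at −3.14 (SE 0.07) and RPS9A at −2.03 (SE 0.05) led. Many ribosomal protein genes have near-identical copies, and 27 of the 127 probe sets carried a suffix for probes shared between genes. The ribosomal protein median was −1.39 at 56 min and −1.34 at 120 min against −10 min, and 121 of these genes were lower at 120 than at 24 min, against 21.0% of all. In the ribosome biogenesis list 125 of 129 were higher at 120 than at 24 min, against 30.2% of all, and 1 lower (median 1.42, or 1.36 with values not above background raised to it). Beside these lists, the medians over all probe sets at 7 and 24 min were −0.01 and 0.09.

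**Figure D5:**
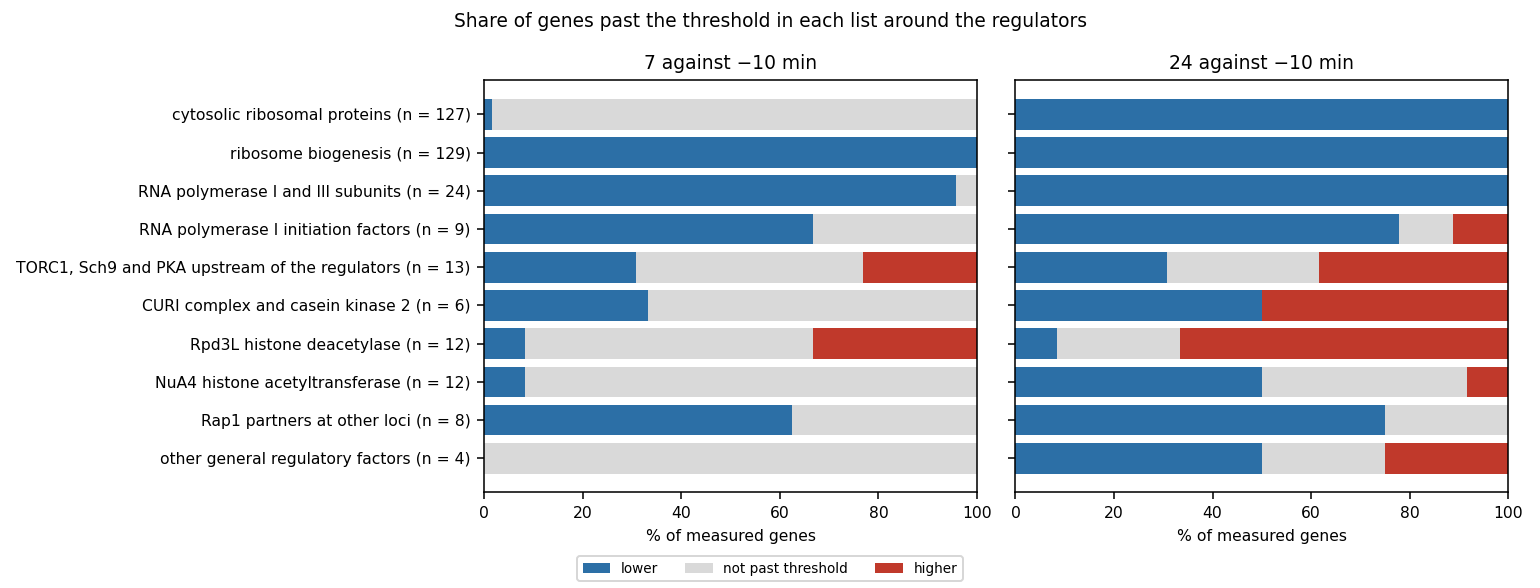
Percent of measured genes in each of 10 lists that were lower, not past the threshold or higher at 7 min (left) and 24 min (right) against −10 min. All ribosome biogenesis genes were lower in both panels, ribosomal protein genes were lower at 24 min, and the Rpd3L list held 8 of 12 higher genes at 24 min. Over all probe sets, which are not drawn, 20.9% were lower at 7 min. At 24 min 35.2% were lower and 46.9% higher.

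Transcripts of factors upstream of the regulators were measured as well. Of 13 measured genes of the TORC1, Sch9 and protein kinase A group (14 listed) 5 were higher and 4 lower at 24 min (median 0.07), where 46.9% of all were higher and 35.2% lower. The catalytic subunit genes of protein kinase A split, with TPK2 at 1.22 (SE 0.06) and TPK3 at −1.31 (SE 0.06), while YAK1, encoding a kinase that acts on Crf1, was at 0.95 (SE 0.04) and BCY1, encoding the regulatory subunit, at 0.92 (SE 0.06). SCH9, whose kinase phosphorylates Dot6, Tod6 and Stb3, was lower at 7 min (−0.18, adjusted p = 0.00391) and at 0.09 at 24 min (adjusted p = 0.0622). MRS6, whose product binds Sfp1, was lower at −0.56 (adjusted p = 1.97e-08).

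Partner complexes were also measured at 24 min against −10 min, where 46.9% of all probe sets were higher and 35.2% lower. In the CURI complex, which holds Ifh1 together with rRNA processing factors, UTP22 and RRP7 were lower at 24 min, at −2.06 (SE 0.05) and −0.96 (SE 0.05), whereas the casein kinase 2 genes CKA2, CKB1 and CKB2 were higher by 0.14 to 0.24 and CKA1 lower at −0.11. The Rpd3L deacetylase, which Dot6, Tod6 and Stb3 recruit, had 8 of 12 genes higher and 1 lower at 24 min (median 0.27), with ASH1 at 0.50 (SE 0.04), CTI6 at 0.43 (SE 0.05) and RPD3 itself at 0.29, and RXT2 lower at −0.47 (SE 0.05). The NuA4 acetyltransferase, which is recruited to ribosomal protein promoters, had 6 of 12 lower and 1 higher (median −0.11), with the scaffold gene TRA1 at −0.42 (SE 0.05) and the catalytic subunit gene ESA1 at −0.01 (adjusted p = 0.753). Partners of Rap1 at other loci had 6 of 8 lower and none higher (median −0.35), among them the glycolytic activator genes GCR1 at −0.68 (SE 0.05) and GCR2 at −0.55 (SE 0.04) and the silencing genes SIR2 at −0.62 (SE 0.05) and SIR4 at −0.52 (SE 0.06). Of the RNA polymerase I initiation factors 7 of 9 were lower and 1 higher (median −0.89), RRN11 most at −3.11 (SE 0.12) and RRN3 at −1.07 (SE 0.07). The other general regulatory factors CBF1, at 0.33 (SE 0.09), and TBF1 and MCM1, at −0.34 (SE 0.07) and −0.30 (SE 0.05), split, with 1 of 4 higher and 2 of 4 lower.

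The transcripts whose log2 intensities over the 15 arrays were most like those of each regulator were sought among 5306 probe sets above background on every array. For IFH1 they were BAS1 (r = 0.997), RRN11 (r = 0.996) and FAP1 (r = 0.995), and for TOD6 BAS1 (r = 0.994), RIO1 (r = 0.994) and IFH1 itself (r = 0.994), although TOD6 was not above background on the array at 14 min and the 3 at 24 min. RAP1 was most like DED81 (r = 0.986), RPS25B (r = 0.983) and SSB1 (r = 0.982), and ABF1 most like RPS9A (r = 0.966), NPT1 (r = 0.965) and UBC9 (r = 0.957). CRF1 was most like ATG1 (r = 0.984), UBP15 (r = 0.982) and AHP1 (r = 0.981), and STB3 most like NDL1 (r = 0.981), OYE3 (r = 0.979) and ESC1 (r = 0.979). SFP1 was nearest to OYE2 (r = 0.959), PRP3 (r = 0.947) and STD1 (r = 0.933), HMO1 to ERV1 (r = 0.922), RNQ1 (r = 0.908) and HBN1 (r = 0.907), and FHL1 to LDB19 (r = 0.919), RAD55 (r = 0.918) and TEL1 (r = 0.915). DOT6 had no close neighbour, the nearest being YER034W (r = 0.809), MTQ1 (r = 0.733) and ISA1 (r = 0.728). Among the regulators themselves, RAP1 and STB3 ran opposite to each other (r = −0.93), as did IFH1 and CRF1 (r = −0.86), while RAP1 and ABF1 ran together (r = 0.89). CRF1 ran as opposite to ABF1 (r = −0.88) and TOD6 (r = −0.87), and STB3 ran opposite to ABF1 (r = −0.90). The opposition of IFH1 and CRF1 was thus not particular to this paralog pair. These are Pearson correlations over arrays of 3 cultures that share the same time course, given as a description.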

How the data were processed

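The deposited values were 1 linear intensity per probe set and array, already normalized. The authors state that each intensity was computed from perfect-match probes alone, after an RMA background correction, with QSPLINE as the normalization between arrays and Li-Wong as the summary of a probe set. R 2.10.0 and the affy package stand in the submitters' notes. As the arrays were scaled to each other, changes are relative to the measured transcripts, and a change in total mRNA per cell would not be seen. Of 10928 probe sets, 5498 were used, each paired with 1 gene of S. cerevisiae (5449 genes).

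Intensities were taken to log2 with no pseudocount and fitted in R 4.3.3 with limma 3.58.1 (lmFit with 1 mean per sampled time, then eBayes with an intensity trend, 6 residual degrees of freedom). Benjamini-Hochberg adjustment covered the 5498 probe sets of each comparison, and 0.05 was the threshold. Times with 1 array were assumed to vary as the 3 replicated times do. The number of arrays, not a read depth, limits the precision. Where a gene was not above background on every array of a group, each such array was raised to 68.1 units before taking means, which gives a lower bound (at least N-fold).

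Replicate numbers mark samples of 1 bioreactor culture, so they pair the samples. Deviations from the mean of a time correlated by −0.271 to 0.189 between arrays of the same culture, and a fit with a replicate block for the culture was run beside each test.

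The 10 genes, the 10 gene lists and the tests were chosen with earlier results of these data known. The genes named are the 10 regulators, the 3 most alike in profile to each, and, at 24 min against −10 min, at most 4 called genes per list by size of change. ESA1, RPD3, SCH9, MRS6, CKA1 and CKA2 were named after their values were seen. Promoter motifs and sequences were not analysed here, no coordinates were used, and the upshift and rapamycin experiments were not analysed here.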

Additional observations from a re-analysis of the deposited data

How the results depend on the processing

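Of 562 re-computed changes that had passed the threshold for a regulator, all kept their direction and 20 no longer passed, and of 488 that had not passed, 38 changed sign and 20 passed. Leaving out the intensity trend, or keeping only probe sets above background in 3 arrays, cannot alter an estimated change. Among −10, 7 and 24 min, the fits with the culture as a fixed or random block and the fit of 9 arrays cannot either. The direction was thus fixed in advance for these, and only the call could move. At 7 min against −10 min the count of regulators called was 5 under quantile normalization and 5 under median centring, in place of 3. Calls over all probe sets rose there too, to 2542 and 2593, in place of 2165. Without replicates 1, 2 and 3 they numbered 1184, 2544 and 1299. With 1 culture left out the count of regulators called was 2 to 3. At 3 min it was 0 under the replicate block and 0 without the intensity trend, in place of 1, and 0 to 2 with a culture left out, where calls over all probe sets numbered 437 under quantile normalization, 1 under the block, 1 without the trend, 1046 without replicate 2 and 1 without replicate 3, in place of 203. At −5 min calls over all probe sets numbered 272 without replicate 2, in place of 1. Under the replicate block 4 regulators were called at 7 min and 9 at 24 min, beside 2040 and 4442 calls over all probe sets. Beside the calls given with the results, it changed no other call among the re-computed changes of the regulators. Calls of the genes in the lists were not compared in this way. Changes of sign at 7 min were those of HMO1 (0.0099) and DOT6 (0.0080) under median centring, with ranges of −0.0784 to 0.0109 and −0.0722 to 0.0046 with a culture left out. FHL1 at 24 against 7 min was 0.20 under quantile normalization and −0.0653 to 0.012 with a culture left out, and at 120 against −10 min it was 0.0141 and −0.12 to 0.115. CRF1 at 120 against 24 min was −0.0493 under the replicate block, −0.40 under quantile normalization (adjusted p = 0.0211) and −0.0133 under median centring. The cause was not tested. On the linear scale the times of 50% change were 5.57 min for IFH1, 24.7 min for RAP1, 10.6 min for CRF1 and 13.9 min for ABF1. Calls were also lost for HMO1 at 56 against 24 min without the intensity trend (adjusted p = 0.0584), FHL1 there under quantile normalization (adjusted p = 0.0997) and DOT6 at 120 against 24 min under median centring (adjusted p = 0.0545). Without replicate 1 the 6 times measured in it alone give no value. The number of arrays limits the precision, and TOD6 at 14 and 24 min has only a bound.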
